A study of Mus musculus with 6 samples.

Results

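Heart muscle cells are joined end to end at the intercalated disc, and the transcripts described here are those of 10 genes of that structure and of cell adhesion. They were taken by name from a deposited table of 56748 genes: the connexins Gja1 and Gja5, the cadherin Cdh2, the alpha catenin Ctnna3, the desmosome genes Dsp, Pkp2, Jup, Dsg2 and Dsc2, and the neural cell adhesion molecule Ncam1. All 10 were found and all 10 passed the filter for testing, a mean of at least 1 FPKM over the 6 libraries. FPKM divides the fragments of a gene by its length and by the size of the library, so levels of different genes can be compared. The genes were selected on function together with the difference in FPKM between the groups of these same libraries, which was known when they were proposed, and Ncam1, no structural part of the disc, is on the list with that difference in view. The differences, that of Ncam1 above all, are therefore a description and give no independent support.

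RNA was sequenced from hearts of newborn mice at postnatal day 1, and the sample titles do not say that whole hearts were taken. The cKO group holds 3 heart samples with a cardiac specific knockout of Kdm5b, a histone demethylase. The FF group holds 3 control heart samples labelled Flox. Below, cKO hearts and FF hearts mean these samples. The sources used here do not give the strain, the Cre driver of the knockout, whether FF mice carry Cre, or whether hearts were pooled. The labels number the samples without saying that each is a separate animal, so a p-value speaks only of the spread among these samples, which may be technical.

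Libraries held 15658893 to 20339926 reads, and the 12 fixed markers of heart muscle cells were above 1 FPKM in all 6. Kdm5b itself was at 2.80, 3.03 and 2.75 FPKM in cKO hearts, against 3.19, 3.25 and 3.92 FPKM in FF hearts, with a log2 difference of -0.20 (adjusted p = 0.447, limma). The groups did not overlap, over the whole gene and every cell type, which says little of the deleted part. FF replicate 3 stood apart. Its correlation across genes with the other libraries was 0.880 to 0.909, and thymocyte markers summed to 346 FPKM in it, against at most 2.34 FPKM elsewhere. Markers of thymic epithelium summed to 65.6 FPKM in that library and to at most 2.85 FPKM in the others. The difference of each of the 10 genes is given with and without FF replicate 3, and list genes that pass the threshold without it, but not with all libraries, are named.

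Adherens junctions couple the contractile apparatus of neighbouring cells through cadherins and catenins, and desmosomes anchor the intermediate filaments through desmosomal cadherins, plakoglobin, plakophilin and desmoplakin. Gap junctions, built from connexins, pass the electrical impulse. In the newborn heart these junctions are still spread around the cell and gather at the cell ends during postnatal growth. In human patients, mutations of desmosome genes cause arrhythmogenic cardiomyopathy.

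The connexins Gja1 and Gja5 behaved unlike each other across the libraries, and the sequences before their transcription start are shown for this reason. RefSeq entries were found for 5 of the 10 genes, Gja1, Gja5, Ctnna3, Jup and Dsp. Each sequence is the 250 bases before the start, on the plus strand of GRCm38.p6, at chr10:56377050-56377299 for Gja1 and chr3:97032152-97032401 for Gja5. Capitals mark matches on either strand to any of the motifs searched, which were the GC box GGGCGG, the T-box core AGGTGT, the AP-1 motif TGACTCA and TATAAA.
Gja1: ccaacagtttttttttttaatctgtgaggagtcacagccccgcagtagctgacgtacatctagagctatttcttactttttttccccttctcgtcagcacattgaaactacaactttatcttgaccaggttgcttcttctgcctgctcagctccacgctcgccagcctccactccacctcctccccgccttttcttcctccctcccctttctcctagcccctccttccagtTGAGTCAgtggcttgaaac
Gja5: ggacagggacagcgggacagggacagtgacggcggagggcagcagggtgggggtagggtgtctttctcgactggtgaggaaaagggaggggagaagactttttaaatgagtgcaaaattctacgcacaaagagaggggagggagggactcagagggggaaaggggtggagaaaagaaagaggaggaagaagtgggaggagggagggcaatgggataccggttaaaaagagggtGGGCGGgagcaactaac
The Gja1 window held 1 AP-1 match and had a GC content of 50.0%, and the Gja5 window held 1 GC box match and had 56.4%. Of 32851 RefSeq promoter windows of this length, 4.46% held the AP-1 letters and 32.7% the GC box. The T-box letters were in 11.8% of windows and TATAAA in 12.4%, and neither was in these 2. A match to letters is a description of the sequence and was not set against the expression values.

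Across the 10 genes, levels ran over a wide range with Dsp first and Ctnna3 last in both groups. In cKO hearts Dsp had the highest mean, 92.0 FPKM, followed by Gja1 with 79.4, Cdh2 with 67.8, Pkp2 with 46.1 and Jup with 38.8 FPKM. Below them came Ncam1 with 18.3, Dsg2 with 13.0, Gja5 with 12.4, Dsc2 with 8.85 and Ctnna3 with 3.84 FPKM. In FF hearts Dsp was again highest, with 74.6 FPKM, and Ctnna3 lowest, with 3.26 FPKM. Ncam1 ranked 6 of 10 in cKO and 8 of 10 in FF hearts, while Gja5 ranked 8 in cKO and 6 in FF hearts. Values of Dsp and Gja1, of Pkp2 and Jup, and of Gja5 with Ncam1, Dsg2 and Dsc2 overlapped within the cKO group. In FF hearts the values of Dsp, Cdh2, Gja1, Jup and Pkp2 overlapped in a chain, and Ctnna3 reached the lowest value of Dsc2.

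**Figure D1:**
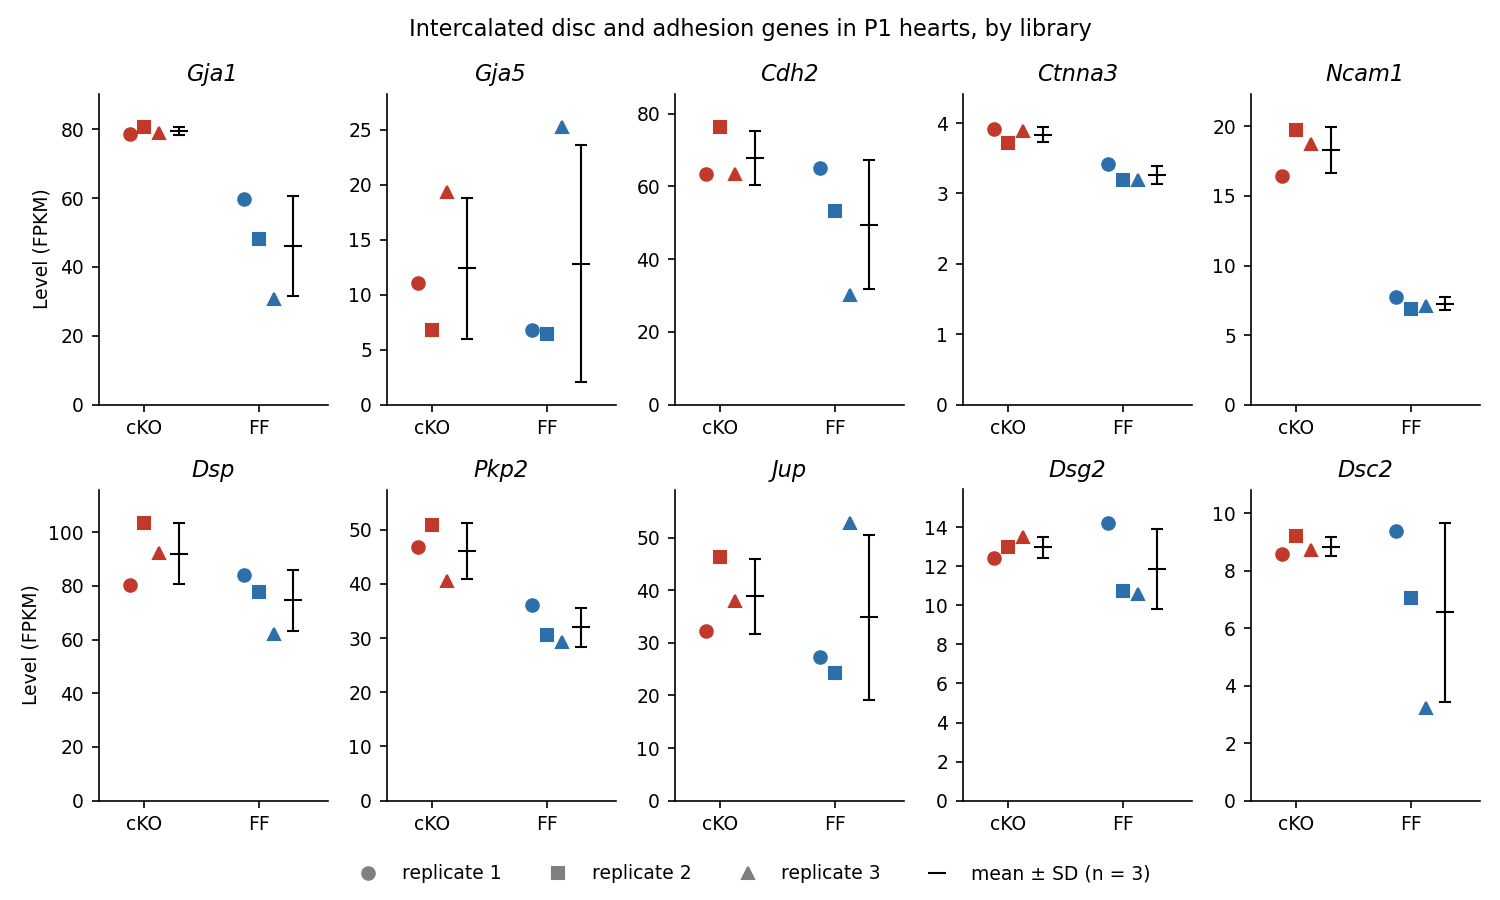
Level of each of the 10 genes in FPKM (vertical axes, from 0) in the 3 cKO and 3 FF libraries, with a symbol for each replicate number and the group mean ± SD beside the points. Ncam1, Gja1, Pkp2 and Ctnna3 have every cKO value above every FF value, and FF replicate 3 (blue triangle) is the highest point for Gja5 and Jup and the lowest for the other genes except Ncam1.

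The log2 difference, taken as mean log2(FPKM + 1) of cKO hearts minus that of FF hearts, was above 0 for 10 of 10 genes with all libraries and for 10 of 10 without FF replicate 3, where 50.7% and 48.6% of the 12678 genes tested were above 0. For 4 of the 10 genes (Gja1, Pkp2, Ctnna3 and Ncam1) every cKO value lay above every FF value, and for 0 every cKO value lay below. Of all genes tested, 28.0% did not overlap between the groups in either direction, and 13.5% did not overlap with cKO higher. Without FF replicate 3 Jup joined them, making 5 of 10, beside 52.0% of all genes in either direction and 25.0% with cKO higher. In the limma fit across all genes, 1 of the 10 passed an adjusted p of 0.05 (Benjamini-Hochberg), Ncam1, where 0.166% of all genes did (0.0710% higher and 0.0947% lower in cKO), and nothing is read from this count because Ncam1 was listed with that call known. The count without FF replicate 3 was 2 of 10, Ncam1 and Gja1, beside 12.0% of all genes (5.73% higher and 6.26% lower). Leaving out any other library left 0 of 10, with 0 genes called in the whole table in limma and 1268 to 2041 genes at an unadjusted p under 0.05. The median of the 10 differences was 0.39 with all libraries and 0.33 without FF replicate 3, against 0.01 and -0.01 over all genes tested. The genes were listed with the group differences known, so these counts and medians are a description, and the sign of Gja5 turned on single libraries. In RNA of heart tissue, more cells of a type and more RNA per cell cannot be told apart.

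**Figure D2:**
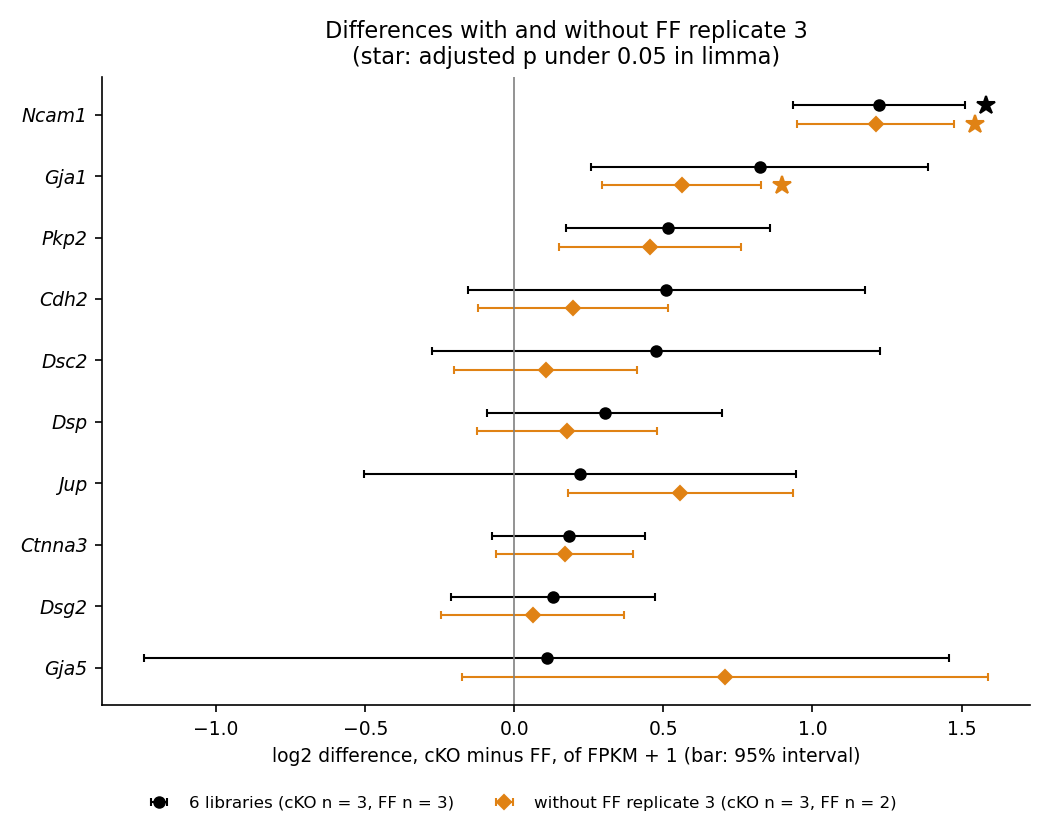
Log2 difference of each gene, cKO minus FF, of FPKM + 1 (horizontal axis), with its 95% interval from limma, for all 6 libraries (black) and without FF replicate 3 (orange); a star marks an adjusted p under 0.05, which for Ncam1 is a description. The differences of Gja5 and Jup are larger without FF replicate 3, and those of Gja1, Cdh2 and Dsc2 are smaller.

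Gja1 (ENSMUSG00000050953, chromosome 10, 56253426 to 56278609, plus strand) encodes the main connexin of working ventricular muscle. It was at 78.7, 80.7 and 78.9 FPKM in cKO hearts, against 59.6, 48.0 and 30.6 FPKM in FF hearts. The cKO values lay close together and above all FF values, which spread widely, with FF replicate 3 lowest. The means were 79.4 ± 1.09 FPKM in cKO and 46.1 ± 14.6 FPKM in FF hearts (SD, n = 3 each). The log2 difference was 0.82 (SE 0.24, 95% interval 0.26 to 1.39), with an adjusted p = 0.157 in limma. Without FF replicate 3 the difference was smaller, 0.56 (SE 0.11), and passed the threshold with an adjusted p = 0.0321 in limma. The 5 fixed ventricular markers went the other way, with sums of 3404 to 4221 FPKM in cKO and 4709 to 6269 FPKM in FF hearts, and their part in the result was not tested. A correction for the GC content of each gene also brought Gja1 past the threshold with 6 libraries, at 0.72 (adjusted p = 0.0323, limma).

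Gja5 (ENSMUSG00000057123, chromosome 3, 96812009 to 96984732, plus strand) encodes the connexin of atria, of the ventricular conduction system and of arterial endothelium. It was at 11.02, 6.77 and 19.4 FPKM in cKO hearts, against 6.78, 6.42 and 25.3 FPKM in FF hearts. The groups overlapped fully, and the highest values were FF replicate 3 and cKO replicate 3. The log2 difference was 0.11 (SE 0.57, adjusted p = 0.938, limma), whereas the mean FPKM was slightly lower in cKO (12.4 ± 6.40) than in FF hearts (12.8 ± 10.8; SD, n = 3 each). The sign and size turned on single libraries: without FF replicate 3 the difference was 0.71 (95% interval -0.18 to 1.59, adjusted p = 0.227, limma), and without FF replicate 1, FF replicate 2 or cKO replicate 3 it was -0.17, -0.21 or -0.25.

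The libraries with high Gja5 were those with high atrial markers. The 10 fixed atrial markers, all tested, summed to 1244, 607 and 1620 FPKM in cKO hearts, against 169, 656 and 1935 FPKM in FF hearts. FF replicate 3, cKO replicate 3 and cKO replicate 1 were the 3 highest libraries, in this order, by both measures. Arterial endothelial markers varied less, with sums of 53.7 to 55.6 FPKM in cKO and 46.1 to 53.0 FPKM in FF hearts, every cKO sum being the higher. Conduction system markers summed to 65.2, 78.1 and 70.1 FPKM in cKO hearts, against 91.5, 81.2 and 105 FPKM in FF hearts. Their sum too was highest in FF replicate 3. The part of these cell types in the Gja5 values was not tested. The span of Gja5 begins at 96812009, just inside 1 end of Gpr89 on the other strand (96775597 to 96812662). Over its whole length Gpr89 had 168 to 353 reads per library, beside 590 to 2779 reads of Gja5.

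**Figure D3:**
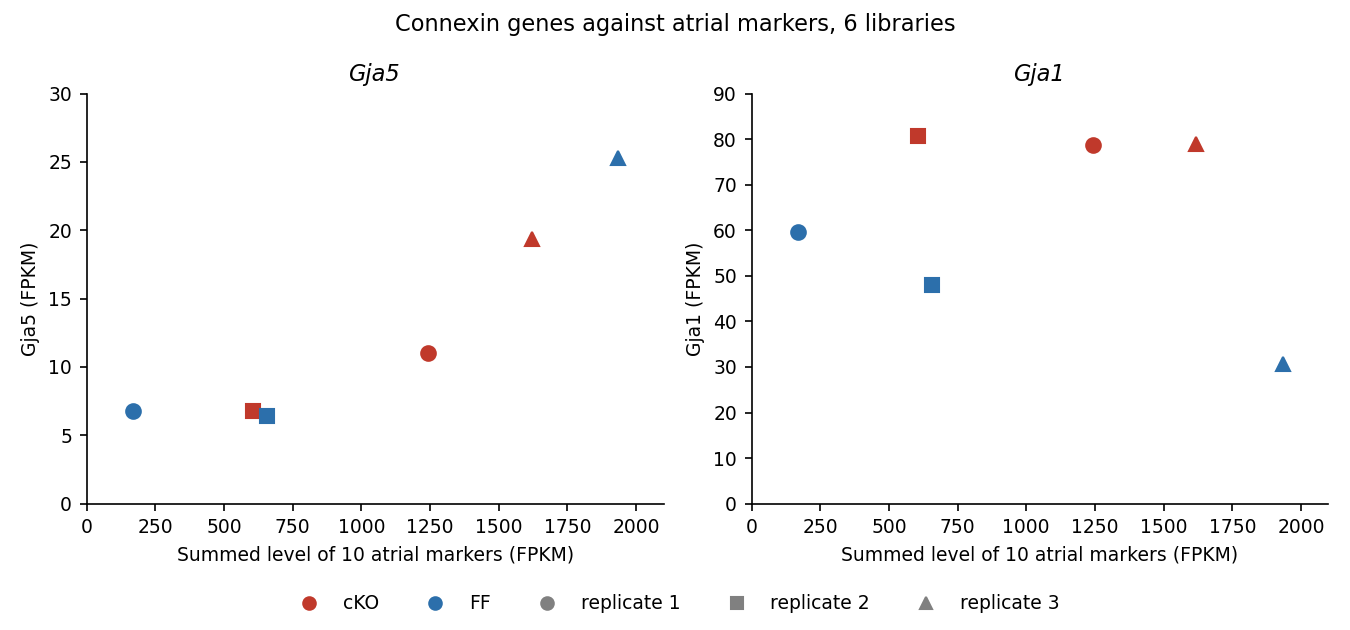
Level of Gja5 (left) and Gja1 (right) in FPKM against the summed FPKM of 10 atrial markers in each of the 6 libraries, with red for cKO, blue for FF and a symbol for each replicate number. Gja5 is highest in the 3 libraries with the highest atrial sums, and Gja1 lies at 78.7 to 80.7 FPKM in all cKO libraries while the atrial sum runs over 607 to 1620 FPKM.

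Ratios within a library do not depend on how libraries were scaled, so the make-up of the connexin pool was also read. Gja1 made up 61.8%, 63.7% and 56.9% of the summed FPKM of 6 connexin genes in cKO hearts, against 56.7%, 51.5% and 31.7% in FF hearts. The lowest cKO share and the highest FF share, 56.9% and 56.7%, nearly touched. The share of Gja5 was 8.65%, 5.35% and 14.0% in cKO hearts, against 6.45%, 6.88% and 26.1% in FF hearts, and overlapped. The share of Gja3, a connexin best known from the lens, was lower in every cKO library, 6.94%, 7.21% and 6.54%, than in the FF libraries, 10.9%, 10.2% and 11.5%. Its own level had a log2 difference of -0.22 (adjusted p = 0.384, limma).

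**Figure D4:**
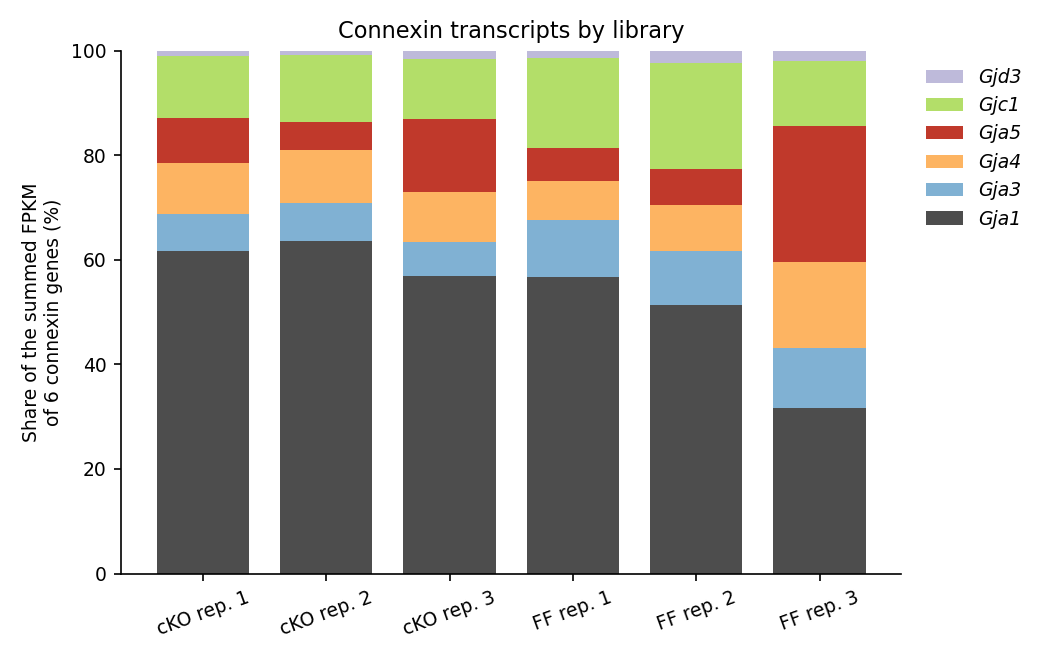
Share of each of 6 connexin genes in their summed FPKM (vertical axis, in percent) for each library, cKO left and FF right. Gja1 takes 56.9% to 63.7% in cKO libraries and 31.7% in FF replicate 3, where Gja5 takes 26.1%.

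Gjc1, the connexin of the early heart tube and the nodes, was at 15.6 ± 0.648 FPKM in cKO and 16.3 ± 3.69 FPKM in FF hearts (SD, n = 3 each). Its log2 difference was -0.04 (SE 0.18, adjusted p = 0.932, limma), and its sign changed with the scaling. Gja4 of arterial endothelium was at 12.6, 12.8 and 13.3 FPKM in cKO hearts, against 7.82, 8.24 and 15.8 FPKM in FF hearts. As for Gja5, FF replicate 3 was the highest library for Gja4, whose difference was 0.32 (adjusted p = 0.556, limma) and without that library 0.62 (adjusted p = 0.0172, limma). Among the 21 other connexins and pannexins listed, 5 were tested and 0 passed with all libraries. Gja3 and Panx1, the channel-forming pannexin (-0.38, adjusted p = 0.302, limma), had the smallest p.

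Among adherens junction genes, Cdh2 (ENSMUSG00000024304, chromosome 18, 16721934 to 16942303, minus strand) encodes N-cadherin, the classical cadherin of the disc. It was at 63.4, 76.4 and 63.5 FPKM in cKO hearts, against 65.0, 53.1 and 30.2 FPKM in FF hearts. FF replicate 1 lay within the cKO range and FF replicate 3 far below it. Its difference was 0.51 (SE 0.28, adjusted p = 0.398, limma) and 0.20 (95% interval -0.12 to 0.52, adjusted p = 0.336, limma) without FF replicate 3. Ctnna3 (ENSMUSG00000060843, chromosome 10, 63265877 to 64839446, plus strand) encodes alpha T-catenin, which links cadherin complexes with desmosomal plakophilin in the heart. It was at 3.92, 3.71 and 3.88 FPKM in cKO hearts, against 3.41, 3.19 and 3.19 FPKM in FF hearts. The groups did not overlap, but their counting intervals did: the lowest cKO value rests on 530 reads (exact 95% Poisson interval 3.40 to 4.04 FPKM) and the highest FF value on 421 reads (3.09 to 3.75 FPKM). The difference of Ctnna3 was 0.18 (SE 0.11, adjusted p = 0.437, limma), and 0.17 without FF replicate 3, a library that did not stand apart for this gene.

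Partners of these genes were read beside them. Ctnna1, the alpha catenin found in most cells, was at 135 ± 10.9 FPKM in cKO and 119 ± 6.36 FPKM in FF hearts, and the beta catenin gene Ctnnb1 at 99.2 ± 6.82 and 91.1 ± 7.57 FPKM in the same order (SD, n = 3 each). Ctnna1 was 32.0, 39.6 and 34.5 times the level of Ctnna3 in cKO libraries and 36.6, 35.2 and 37.3 times in FF libraries. The proportion of these catenin transcripts thus overlapped between the groups. Of 25 other cadherins, catenins and nectins, 15 were tested and 0 passed with all libraries, and the median difference was -0.07, or 0.07 without FF replicate 3. Vcl, which encodes the actin-linking protein vinculin, had a difference of 0.42 (adjusted p = 0.193, limma), and the catenin-like gene Ctnnal1 had 0.49 (adjusted p = 0.316, limma). Cdh5, the cadherin of endothelium, stood at -0.27 (adjusted p = 0.626, limma) and at -0.0033 without FF replicate 3 (adjusted p = 0.992, limma). The call in this list without FF replicate 3 was Cdh3, encoding P-cadherin, at 0.99 (adjusted p = 0.0159, limma). With all libraries it was at 0.60 (adjusted p = 0.388, limma). FF replicate 3, at 3.93 FPKM, lay above the cKO values of 2.99, 3.60 and 3.64 FPKM.

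Desmosome genes are given from the plaque outward to the cadherins. Pkp2 (ENSMUSG00000041957, chromosome 16, 16031182 to 16090576, plus strand) encodes plakophilin, the plaque protein that recruits desmoplakin. It was at 46.8, 50.9 and 40.6 FPKM in cKO hearts, against 36.1, 30.6 and 29.2 FPKM in FF hearts. All cKO values lay above all FF values, with means of 46.1 ± 5.17 FPKM in cKO and 32.0 ± 3.64 FPKM in FF hearts (SD, n = 3 each). The log2 difference was 0.51 (SE 0.14, 95% interval 0.17 to 0.86, adjusted p = 0.149, limma), short of the threshold. Without FF replicate 3 it was 0.45 (adjusted p = 0.0639, limma), also short of it.

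Jup (ENSMUSG00000001552, chromosome 11, 100259784 to 100288589, minus strand) encodes plakoglobin, which serves in both desmosomes and adherens junctions. It was at 32.3, 46.3 and 37.8 FPKM in cKO hearts, against 27.3, 24.3 and 52.8 FPKM in FF hearts. FF replicate 3 was the highest of the 6 libraries and FF replicates 1 and 2 were the lowest. For Jup the log2 difference was 0.22 (SE 0.30, adjusted p = 0.748, limma), and without FF replicate 3 it was 0.56 (95% interval 0.18 to 0.93, adjusted p = 0.0651, limma). Jup is also abundant in epithelia. The 13 markers of keratinocytes and other epithelia, of which 1 was tested, summed to 2.16 to 4.91 FPKM in cKO and to 2.31, 3.00 and 17.0 FPKM in FF hearts. The last value is FF replicate 3, in which Krt5 was at 3.04 FPKM and Foxn1, the master regulator of thymic epithelium, at 1.80 FPKM, while both were listed at 0 in the other libraries. The keratins Krt8 and Krt18 of simple epithelia were at 27.9 and 50.0 FPKM in FF replicate 3 and at most 1.81 and 5.90 FPKM elsewhere. The part of epithelial cells in the Jup value was not tested.

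Dsp (ENSMUSG00000054889, chromosome 13, 38335270 to 38382553, plus strand) encodes desmoplakin, the link to the desmin filaments. It was at 80.4, 103 and 92.3 FPKM in cKO hearts, against 84.1, 77.7 and 61.9 FPKM in FF hearts. The groups overlapped through FF replicate 1, and the log2 difference was 0.30 (SE 0.17, adjusted p = 0.396, limma) and 0.18 (adjusted p = 0.359, limma) without FF replicate 3. The ratio of Jup to Dsp was 0.401, 0.449 and 0.410 in cKO libraries, against 0.325, 0.313 and 0.853 in FF libraries. FF replicates 1 and 2 thus had the lowest ratios and FF replicate 3 the highest.

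The desmosomal cadherins of heart muscle had groups that overlapped. Dsg2 (ENSMUSG00000044393, chromosome 18, 20691131 to 20737578, plus strand), desmoglein, was at 12.4, 13.0 and 13.5 FPKM in cKO hearts, against 14.2, 10.7 and 10.6 FPKM in FF hearts. Dsc2 (ENSMUSG00000024331, chromosome 18, 20163690 to 20192611, minus strand), desmocollin, was at 8.59, 9.21 and 8.74 FPKM in cKO hearts, against 9.40, 7.05 and 3.24 FPKM in FF hearts. For both genes FF replicate 1 was above every cKO value. The log2 difference of Dsg2 was 0.13 (95% interval -0.21 to 0.47, adjusted p = 0.683, limma), and that of Dsc2 was 0.48 (95% interval -0.28 to 1.23, adjusted p = 0.485, limma). They were 0.06 and 0.11 without FF replicate 3. The pair kept a steady proportion in 5 libraries: Dsc2 was 0.693, 0.709 and 0.648 of Dsg2 in cKO libraries and 0.661 and 0.656 in FF replicates 1 and 2. In FF replicate 3 it was 0.306. Its 327 reads of Dsc2 there give a counting interval of 2.90 to 3.61 FPKM, well below the other libraries.

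Desmosome genes of stratified epithelia were at trace levels. Dsg3, Dsc3, Pkp1 and Pkp3 reached at most 0.0706 FPKM in the 5 other libraries. In FF replicate 3 Pkp1 was at 0.437, Pkp3 at 0.376 and Dsc3 at 0.261 FPKM, and Dsg3 was at 0. The first 3 values rest on only 42, 26 and 27 reads. Of 13 further desmosome genes listed, 2 were tested, Perp with a log2 difference of 0.15 and Pkp4 with 0.08, and 0 passed (limma).

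Ncam1 (ENSMUSG00000039542, chromosome 9, 49413436 to 49710225, minus strand) encodes an adhesion molecule of the immunoglobulin family, found on embryonic heart muscle, neurons and Schwann cells. It was at 16.5, 19.7 and 18.7 FPKM in cKO hearts, against 7.76, 6.87 and 7.12 FPKM in FF hearts. The groups were far apart relative to their spread, with means of 18.3 ± 1.67 FPKM in cKO and 7.25 ± 0.459 FPKM in FF hearts (SD, n = 3 each), a 2.52-fold higher mean. The lowest cKO value had a counting interval of 15.9 to 17.1 FPKM from 2816 reads, and the highest FF value one of 7.32 to 8.22 FPKM from 1148 reads. FF replicate 3 lay between the other FF libraries, and the fold without it was 2.50. The log2 difference of Ncam1 was 1.22 (95% interval 0.93 to 1.51), and it stayed between 1.17 and 1.29 when any library was left out. Its adjusted p was 0.0338 in limma with all libraries and 0.0116 without FF replicate 3. Leaving out cKO replicate 1, 2 or 3 gave 0.255, 0.229 or 0.225, and leaving out FF replicate 1 or 2 gave 0.123 or 0.144 (limma). Rescaling the libraries to the heart muscle markers gave a difference of 1.15 and an adjusted p = 0.0573 in limma.

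The proportion of Ncam1 to Cdh2 needs no scaling between libraries. It was 0.259, 0.258 and 0.294 in cKO libraries, against 0.119, 0.129 and 0.236 in FF libraries. The groups did not overlap, and FF replicate 3, low in Cdh2, came nearest to the cKO values. A long noncoding RNA of 165 bases on the same strand inside Ncam1 (ENSMUSG00000120806, chromosome 9, 49426429 to 49426593) held 97, 62 and 94 reads in cKO and 37, 41 and 25 reads in FF libraries. Reads of both transcripts there cannot be told apart, and they are few beside the 952 to 3516 reads of Ncam1.

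Markers of other cells that carry Ncam1 were read beside it. The 15 Schwann cell and neural markers, of which 4 were tested, summed to 12.7, 10.6 and 12.4 FPKM in cKO hearts, against 14.1, 11.9 and 53.3 FPKM in FF hearts. The last sum is FF replicate 3, in which Ncam1 was at 7.12 FPKM. Sox10, the regulator of Schwann cells, was at 0.0498, 0.133 and 0.453 FPKM in cKO hearts, against 0.0192, 0.0205 and 0.497 FPKM in FF hearts. Its cKO values were above FF replicates 1 and 2, at trace levels. The 8 markers of natural killer and innate lymphoid cells, 1 of them tested, summed to 0.222, 0.121 and 0.367 FPKM in cKO hearts, against 0.460, 0.341 and 9.52 FPKM in FF hearts, with Ncr1 listed at 0 in all 6. FF replicate 3 was thus the highest library for this list too. Skeletal muscle, which also carries Ncam1 in development, had 11 markers, 2 of them tested, that summed to 383, 441 and 372 FPKM in cKO hearts, against 284, 261 and 451 FPKM in FF hearts. FF replicate 3 had the highest of these sums, and FF replicates 1 and 2 the lowest. Only 2 of the 11 were above 1 FPKM in any library but FF replicate 3. Ckm, which is also on the heart muscle list, was 1 of these 2, so the sums say little of skeletal muscle. The 12 heart muscle markers summed to 15142 to 17696 FPKM in cKO and 14288 to 16216 FPKM in FF hearts. Conduction system markers, 8 of 13 tested, summed to 65.2 to 78.1 FPKM in cKO and 81.2 to 105 FPKM in FF hearts. The sum does not speak for each marker. Cntn2, on this list but below the filter, was at 0.920, 1.45 and 0.985 FPKM in cKO hearts, against 0.315, 0.491 and 0.657 FPKM in FF hearts. The part of these cell types in the Ncam1 difference was not tested.

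The enzymes that add polysialic acid to Ncam1, which loosens its adhesion, were low. St8sia2 was at 0.329, 0.357 and 0.376 FPKM in cKO hearts, against 0.457, 0.708 and 2.17 FPKM in FF hearts. St8sia4 was at 0.678, 0.421 and 0.371 FPKM in cKO hearts, against 0.799, 0.703 and 0.138 FPKM in FF hearts, and neither reached the filter for testing. St8sia2 was thus lower in every cKO library than in any FF library, and St8sia4 overlapped. The St8sia2 values rest on few reads, 35, 38 and 44 in cKO and 42, 61 and 224 in FF libraries. Of 17 genes of polysialylation and partners of Ncam1, 11 were tested and 0 passed with all libraries. Fyn, the kinase that acts downstream of Ncam1 in neurons, was at 13.8, 17.2 and 16.8 FPKM in cKO hearts, against 28.0, 23.7 and 26.4 FPKM in FF hearts. Its difference was -0.68 (adjusted p = 0.0820, limma), and that of Nans, a sialic acid synthase, was -0.73 (adjusted p = 0.109, limma). Without FF replicate 3 both passed the threshold with smaller differences, -0.67 (adjusted p = 0.0305, limma) and -0.56 (adjusted p = 0.0278, limma). Prnp, the prion protein gene, passed it at 0.63 (adjusted p = 0.0481, limma). That made 2 of the 11 lower and 1 higher, beside 6.26% and 5.73% of all genes. Among 30 other adhesion molecules of the immunoglobulin family, 14 were tested and 0 passed. Cadm4 was at -0.78 (adjusted p = 0.103, limma), and without FF replicate 3 it passed the threshold at a smaller difference, -0.68 (adjusted p = 0.0491, limma). Vcam1 was at 0.35 (adjusted p = 0.227, limma).

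The 3 tested genes whose log2 level followed Ncam1 most closely over the 6 libraries were Osbp, a sterol-binding protein gene (Pearson's r 0.997), Tmem164 (0.995) and Xpnpep3 (0.994). These values describe 6 libraries, and much of each is the shared difference between the groups. Tmem164 was at 42.1, 47.2 and 42.4 FPKM in cKO hearts, against 19.9, 19.3 and 18.1 FPKM in FF hearts.

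The scaffold around the junctions was read for context. This list was also chosen with earlier results of these data known, so its counts are a description. Of 39 genes of disc scaffold and cytoskeleton, 36 were tested, 0 passed with all libraries, and the median difference was 0.21, with 29 above 0, where 50.7% of all genes were. In 10 of the 36 every cKO value lay above every FF value, and in 0 below, beside 28.0% of all genes without overlap and 13.5% with cKO higher. Bves, a membrane protein of muscle cell contacts, was at 62.2, 64.1 and 70.2 FPKM in cKO hearts, against 46.3, 41.6 and 42.8 FPKM in FF hearts (log2 difference 0.58, adjusted p = 0.0819, limma). Nrap, which anchors the last thin filaments at the disc, was at 69.4, 87.5 and 80.3 FPKM in cKO hearts, against 52.6, 42.7 and 48.5 FPKM in FF hearts (0.71, adjusted p = 0.0831, limma). Both had groups that did not overlap, and FF replicate 3 was within the FF range for both. Without FF replicate 3, 7 of the 36 passed the threshold as higher in cKO and 0 as lower, beside 5.73% of all genes higher and 6.26% lower. The 7 were Xirp1, Nrap, Lmo7, Bves, Ank3, Flnc and Sorbs2.

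Other fixed partners of the disc were also read. Tjp1, the scaffold that binds Gja1, was at 25.2, 23.2 and 23.4 FPKM in cKO hearts, against 24.5, 23.0 and 12.4 FPKM in FF hearts. Its difference of 0.30 (adjusted p = 0.579, limma) was 0.01 without FF replicate 3, which was low for it as it was for Gja1, Cdh2 and Dsc2. Desmin (Des) was at 0.17 (adjusted p = 0.699, limma), Xirp2 at 0.25 (adjusted p = 0.608) and Cxadr, a virus receptor and junction protein, at -0.21 (adjusted p = 0.659). Integrins and costamere genes, which attach the cell side to the matrix, had a median of 0.05 over 27 tested of 29 listed and 0 past the threshold. That median was -0.0028 without FF replicate 3. Itga7, the laminin receptor of muscle, was at -0.51 (adjusted p = 0.126, limma), and the focal adhesion kinase gene Ptk2 at -0.42 (adjusted p = 0.183, limma). Without FF replicate 3 both passed the threshold as lower in cKO, and Lims2 and Itga5 passed it as higher. These are 2 and 2 of the 27 genes tested, beside 6.26% of all genes lower and 5.73% higher. For Lims2 and Itga5 FF replicate 3 lay within the cKO range, and with all libraries their adjusted p was 0.366 and 0.440 (limma). Over the 7 lists together, 106 of 170 genes were tested. With all libraries 0 passed in limma or in limma voom on the recovered reads, and 18 had an unadjusted p under 0.05, 12 of them higher in cKO, beside 2275 of all 12678 genes, 1064 of them higher. The share in the lists was near that of all genes.

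FF replicate 3 moved the 10 genes in opposite directions. It was the lowest of the 6 libraries for 7 of the 10 genes and the highest for Gja5 and Jup. Relative to the mean of FF replicates 1 and 2 its FPKM was 3.83-fold for Gja5 and 2.04-fold for Jup, but 0.394-fold for Dsc2, 0.511-fold for Cdh2 and 0.569-fold for Gja1. Ncam1, at 0.973-fold, and Ctnna3, at 0.965-fold, were hardly displaced. The GC content of the longest transcript was 58.8% for Jup and 52.8% for Gja5, against 42.2% for Gja1 and 42.5% for Dsc2. Over the 10 genes Spearman's rho between GC content and the log2 displacement of this library was 0.697, and over 12473 tested genes it was 0.639. Genes share the library, so these values describe that library. Cdh2 had a GC content of 49.5%, near the median of 49.7% over those genes. The part of base composition in the displacement was not tested.

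**Figure D5:**
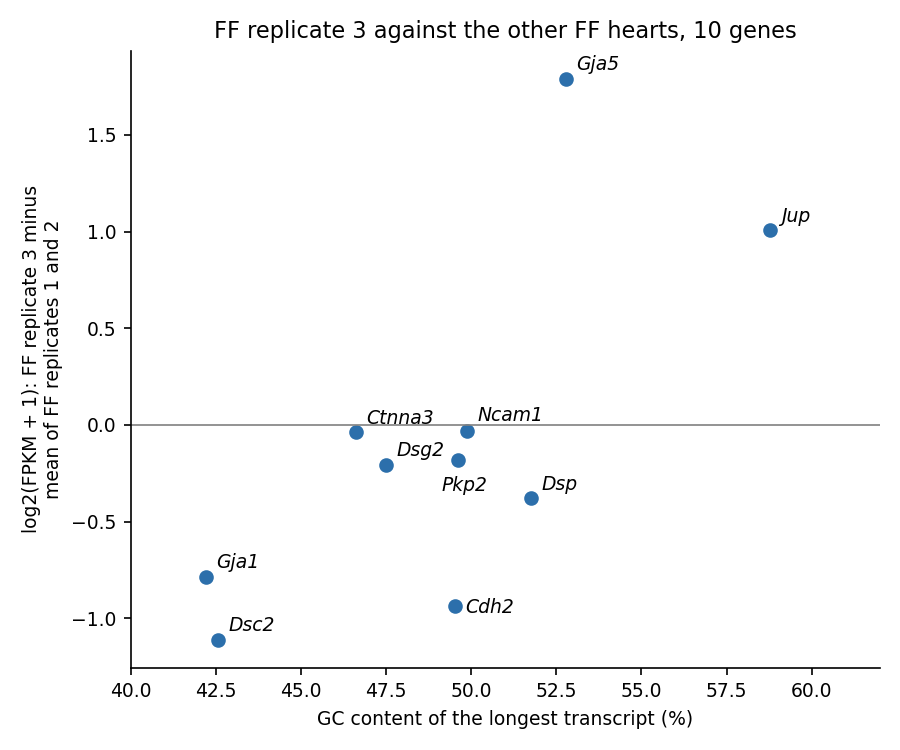
Displacement of FF replicate 3 from the mean of FF replicates 1 and 2 on the log2(FPKM + 1) scale (vertical axis) against the GC content of the longest annotated transcript in percent (horizontal axis), a point for each of the 10 genes. Gja1 and Dsc2, with the lowest GC contents, lie below 0, Gja5 and Jup lie above it, and Ncam1 and Ctnna3 lie near it.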

How the data were processed

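The authors deposited FPKM values for 56748 genes in 6 columns, 1 per library, per the file headers. Tools named in the submitters' processing notes, without their order, are TopHat2 2.0.13, FastQC, featureCounts, Subread and edgeR, and the notes list mm10, GRCm39 and GRCh38 as builds without saying what each was used for. Per the labels' protocols, RNA came from the miRNeasy micro kit and went into the Ovation Ultralow V2 kit. No source used here gives the strand setting of the counting or the annotation release, so overlapping genes may share reads. Coordinates are those of the deposited table. None of the 10 genes has the same start and end in GENCODE M21 (GRCm38), which leaves GRCm39 of the mouse builds named.

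Multiplied by gene length, the FPKM of a library were whole multiples of 1 step (100% of values under 200 reads within 0.1), which gave back the reads. The library size behind the FPKM was 0.960 to 1.07 times their total. Counting intervals (exact 95% Poisson) hold counting error only.

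The test was limma 3.58.1 (R 4.3.3) on log2(FPKM + 1), which understates changes of low genes, with a term for group, a variance trend and Benjamini-Hochberg adjustment over the 12678 genes with a mean of at least 1 FPKM. The fit was tested on simulated data. GC content came from the longest GENCODE M21 transcript of each gene ID.

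The 10 genes, the gene and marker lists and the tests were chosen with earlier results of these data known. Beside the 10 genes and Kdm5b, the rule for naming took 14 fixed partners, from each of 7 lists up to 3 called genes or, with none, the 2 with the smallest p, and the 3 genes most like Ncam1, without predicted genes and pseudogenes. Of the fixed partners, 1 is not reported here. Other genes named were chosen after their values were seen. Of the listed genes, Itgb1bp3 has no row in the table. Alternatives covered pseudocounts, filters, scalings, variance models, voom on the recovered reads, GC correction, the replicate block and each library left out.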

Additional observations from a re-analysis of the deposited data

How the results depend on the processing

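Ncam1 passed the threshold in limma in 12 of 21 alternatives, with a log2 difference of 1.15 to 1.33 in all of them. Gja1 passed in 3 (library weights, GC correction and without FF replicate 3), Pkp2 and Jup in 1 (library weights), and the other 6 genes in 0. The count of the 10 genes past the threshold, 1 with the settings of the report, was 0 with no filter, 0 when rescaled to heart muscle markers, 4 with library weights, which gave FF replicate 3 a weight of 0.0860, and 2 with GC correction. Leaving out a library gave 0 to 2. Over all genes the count of 21 became 11 with a pseudocount of 0.1, 0 with no filter (3210 at an unadjusted p under 0.05), 53 with a mean of at least 5 FPKM, which removes Ctnna3, 59 with quantile normalization, 58 when rescaled outside mitochondrial and haemoglobin genes, 13 without trend, 13 with a robust prior, 11 with voom, 4300 with library weights and 507 with GC correction. Leaving out a library gave 0 to 1520. The causes were not tested.

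The sign held for 9 of the 10 genes in every alternative. Gja5 ran from -0.25 to 0.71 when a library was left out and was above 0 in the other settings. The log2 difference of Gjc1 turned to 0.013 with quantile normalization and 0.050 when rescaled outside mitochondrial and haemoglobin genes, and ran from -0.23 to 0.073 when a library was left out. The log2 difference of Cdh5 turned to 0.061 with library weights.

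The labels do not say whether the replicate numbers pair the samples. Deviations of same-numbered libraries from their group means correlated at 0.38, -0.24 and 0.24 across genes. Those of differently numbered libraries correlated at -0.42 to 0.35. With so few libraries these values cannot show whether the numbers pair the samples. With the replicate number as a block, 2 genes passed in all and 0 of the 10, with Ncam1 at an adjusted p = 0.149 (limma), and with the replicate block and GC correction 0 genes in all (2771 at an unadjusted p under 0.05) and 0 of the 10. Depth was not low for these genes: each of the 10 had at least 327 reads in every library.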
